A study of Homo sapiens with 12 samples.

Results

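Cells make cholesterol from acetyl-CoA, take it up in lipoproteins, move it between membranes and export it, and 32 genes of these steps were followed in MDA-MB-231 cells given less glucose, the drug cariporide, or both. The genes were taken by name, with earlier results of these data known, from the 40929 genes in the count tables. All 32 passed the filter on low counts that left 15104 genes for testing. They comprise 18 enzymes of synthesis, 5 genes that control the sterol-sensing transcription factors, 6 genes of lysosomal and membrane-contact transport, 2 efflux pumps and 1 regulator of uptake. MDA-MB-231 is a human triple-negative breast cancer line, described in the labels as epithelial and of wild-type genotype. All 12 libraries came from this line after 48 h in medium. The NG group had 10 mM glucose, CAR had 10 mM glucose with 25 µM cariporide, LG had 5 mM glucose, and LGCAR had 5 mM glucose with 25 µM cariporide. Each group had 3 libraries. No group was free of glucose, and cells had been maintained in medium with 10% fetal bovine serum, which carries lipoprotein cholesterol. Whether the libraries within a group derive from independent cultures is not stated in the labels, so p-values measure the spread between these libraries, which may be technical. Cariporide inhibits the plasma-membrane sodium-proton exchanger NHE1.

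When the membrane of the endoplasmic reticulum runs low in sterol, SCAP escorts the SREBP transcription factors, made from SREBF1 and SREBF2, to the Golgi, where they are cleaved and freed to switch on genes of synthesis and uptake. INSIG proteins hold SCAP back when sterol is plentiful. Cholesterol taken up in lipoproteins is released in the lysosome and leaves it by way of NPC2 and NPC1, and proteins such as STARD4 and those encoded by the GRAMD1 genes carry sterol between membranes. ABCA1 and ABCG1 export cholesterol when the oxysterol-sensing LXR receptors are active.

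Lower glucose was accompanied by more NPC1 mRNA and, with less certainty, more GRAMD1B mRNA. Of 18 synthesis enzymes, 17 were not called in any comparison. The share of enzymes called was 0% in LG against NG and 5.56% in LGCAR against NG. Over all tested genes these shares were 1.73% and 8.75%, so the count alone does not set the enzymes apart. NPC1 was 1.23-fold higher in LG than in NG. GRAMD1B was 1.75-fold higher in LG than in NG from a low level. Among the planned comparisons LSS was called only in LGCAR against NG, but a need for both changes together was not shown. None of the 32 genes was called with cariporide at either glucose level, and none was called lower in any planned comparison. A gene was called changed when its p from the quasi-likelihood test in edgeR, adjusted by Benjamini and Hochberg's method over all 15104 genes, was under 0.05. By that rule 2 of 32 sterol genes were called in LG against NG, or 6.25%, where 1.73% of all tested genes were called and 1% were called higher. In LGCAR against NG 2 were called, or 6.25%, beside 8.75% of all genes and 4.63% called higher. In LGCAR against CAR 1 was called, or 3.12%, beside 1.65% of all genes and 0.973% called higher. Because the list was chosen with earlier results of these data known, the shares are descriptive and do not show enrichment. The medians of the 32 log2 fold changes in these comparisons were 0.01, 0.04 and 0.04, beside medians over all tested genes of 0.01, 0.01 and 0.01. With single libraries left out the medians ran from -0.01 to 0.04, 0.01 to 0.04 and 0.01 to 0.07.

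**Figure D1:**
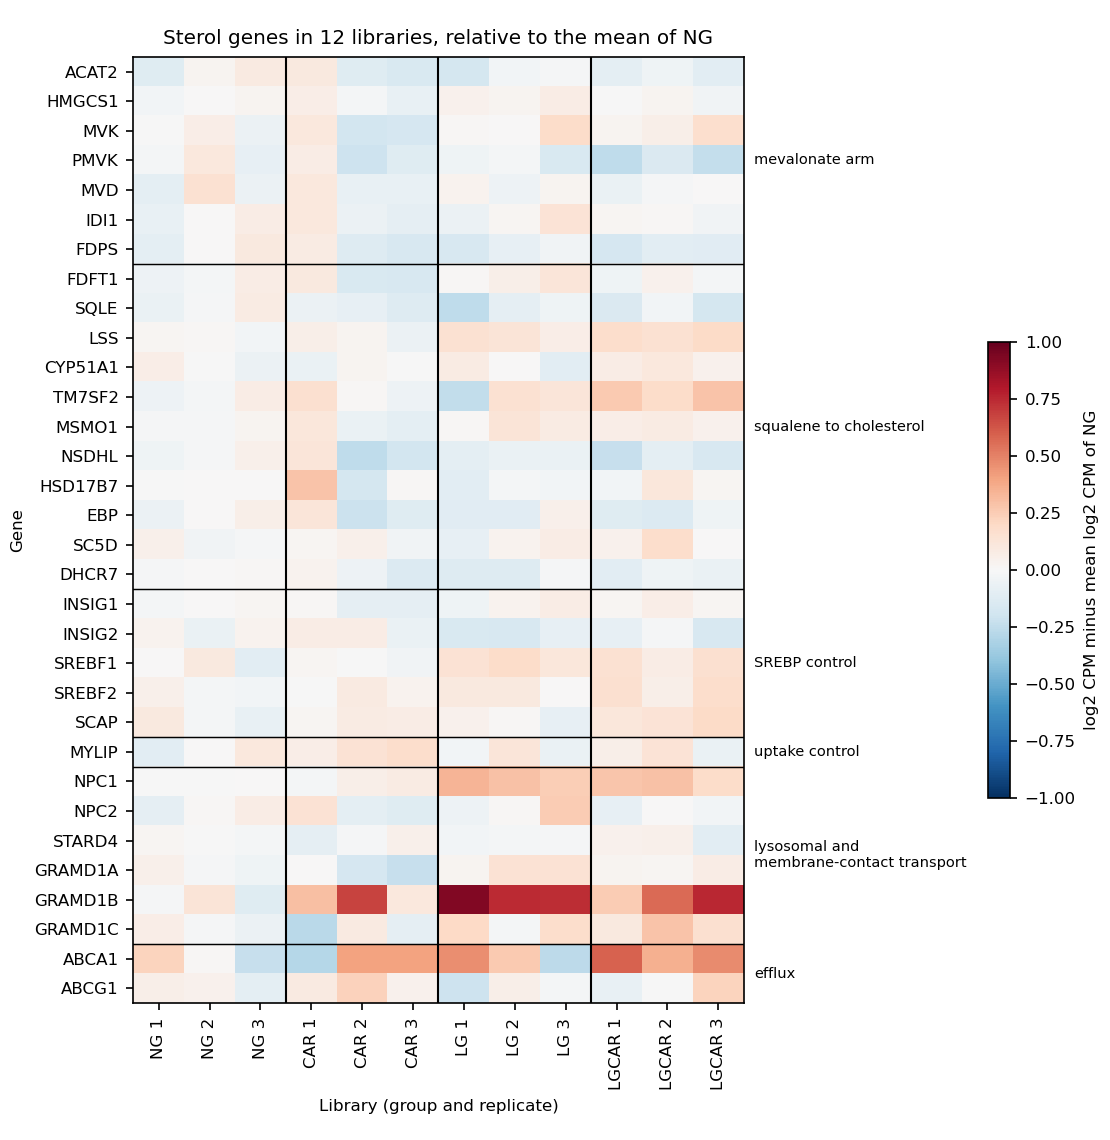
Heatmap of the 32 sterol genes (rows, ordered by role) in the 12 libraries (columns, by group); colour gives log2 CPM minus the gene's mean log2 CPM in the NG group. NPC1 and GRAMD1B were above their mean NG level in all LG and LGCAR libraries, and GRAMD1B was also above it in all CAR libraries. Most enzyme rows stay near 0, and ABCA1 varies widely within groups.

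CPM is a gene's count per 1000000 counts of its library after TMM scaling, which adjusts for differences in composition between libraries. The libraries held 18069004 to 24837409 counts, and the 32 genes took 0.325% to 0.351% of them. Ribosomal RNA genes took 7.10% (CAR 1) to 11.5% (LGCAR 3) of counts, with NG 1 at 11.2%. The labelled cell type was checked against markers: the epithelial keratins KRT8, KRT18 and KRT19 were at 427 to 506, 331 to 434 and 265 to 324 CPM, the mesenchymal filament VIM at 1611 to 1864 CPM, and the epithelial adhesion gene CDH1 at only 0.954 to 2.47 CPM. SPARC, listed as a mesenchymal marker, was at 0.196 to 0.913 CPM, and GATA3, listed as a luminal marker, was at 9.52 to 13.8 CPM, both against what the lists expect of this line. The hormone receptor gene PGR had no counts and ESR1 was at most 0.188 CPM. Of 15 markers of leukocytes, endothelium, adipocytes and fibroblasts, CD3E, CLDN5 and CIDEC had no counts in any library and none exceeded 3.51 CPM.

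The promoters of 4 genes are shown because these genes mark the contrast in the data: HMGCS1 and LSS are synthesis enzymes with flat and slightly raised mRNA, SREBF2 encodes the pathway's main activator, and NPC1 was called in more comparisons than any other member. Each line gives the 250 bases before the gene's start, 5′ to 3′ on the gene's strand, from RefSeq (GRCh38.p14). Capitals mark the CCAAT box, bound by the factor NF-Y, as CCAAT or its reverse complement ATTGG, and the sterol regulatory element TCACNCCAC, bound by SREBPs.
HMGCS1, chr5:43313413-43313662, minus strand: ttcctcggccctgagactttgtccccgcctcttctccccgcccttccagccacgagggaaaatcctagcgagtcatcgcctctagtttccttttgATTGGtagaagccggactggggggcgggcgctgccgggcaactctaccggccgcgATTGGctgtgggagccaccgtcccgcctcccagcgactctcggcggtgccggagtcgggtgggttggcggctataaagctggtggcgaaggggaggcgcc
LSS, chr21:46228775-46229024, minus strand: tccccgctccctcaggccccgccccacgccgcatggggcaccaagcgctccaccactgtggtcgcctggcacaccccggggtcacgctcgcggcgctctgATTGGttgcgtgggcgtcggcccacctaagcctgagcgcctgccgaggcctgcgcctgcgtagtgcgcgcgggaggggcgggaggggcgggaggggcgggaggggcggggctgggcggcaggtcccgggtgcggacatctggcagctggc
SREBF2, chr22:41832855-41833104, plus strand: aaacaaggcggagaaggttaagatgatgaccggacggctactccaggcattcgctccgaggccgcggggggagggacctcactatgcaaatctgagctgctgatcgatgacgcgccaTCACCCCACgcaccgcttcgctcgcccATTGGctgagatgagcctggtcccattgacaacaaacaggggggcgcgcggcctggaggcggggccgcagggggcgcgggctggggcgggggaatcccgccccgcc
NPC1, chr18:23586507-23586756, minus strand: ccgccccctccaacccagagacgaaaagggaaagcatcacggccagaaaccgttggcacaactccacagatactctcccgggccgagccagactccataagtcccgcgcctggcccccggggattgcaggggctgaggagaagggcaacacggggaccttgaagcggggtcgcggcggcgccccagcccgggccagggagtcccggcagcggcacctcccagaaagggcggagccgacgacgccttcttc

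HMGCS1 held 2 CCAAT boxes in this stretch, LSS and SREBF2 held 1 each, and NPC1 held none. A sterol element in this strict spelling was present in SREBF2 alone among the 27 members with a promoter in the table, or 3.70%, beside 1.13% of all 35116 promoters. These shares were counted in windows of 300 bases, from 250 before to 50 after the start, on both strands. Each member was counted by its first listed promoter. The 35116 take in every listed promoter, whether or not its gene was expressed here, so the sets compared are unlike. The CCAAT box was present in 18 of 27 members (66.7%), 12 of them among the 15 synthesis enzymes with a promoter, beside 34.6% of all promoters. The GC box GGGCGG, bound by SP1, was present in 25 of 27 (92.6%) beside 15786 of the 35116, and the E-box CACGTG in 5 of 27 (18.5%) beside 7.26%. A match is a description of the letters and not evidence of binding. Promoters of ACAT2, FDFT1, SQLE, GRAMD1B and ABCG1 were not used here.

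NPC1 encodes the lysosomal membrane protein that passes cholesterol out of the lysosome, and loss of it causes Niemann-Pick disease type C. The gene lies on chromosome 18 at chr18:23506184-23586506 (GRCh38.p14). The 3 NG libraries were at 174, 174 and 175 CPM, a mean of 174 ± 0.522 (SD, n = 3). The CAR libraries were at 172, 181 and 184 CPM (179 ± 6.18, SD, n = 3). In 5 mM glucose the levels were 220.2, 213 and 207 CPM in LG (213 ± 6.75, SD, n = 3). They were 211, 213 and 198 CPM in LGCAR (207 ± 8.46, SD, n = 3). All 6 libraries in 5 mM glucose lay above all 6 in 10 mM glucose. The log2 fold change was 0.29 in LG against NG (SE 0.0468, 95% interval 0.19 to 0.39, edgeR adjusted p = 0.00426). In LGCAR against CAR, whose group means come from other libraries, it was 0.21 (SE 0.0468, 95% interval 0.11 to 0.31, edgeR adjusted p = 0.0330). All 12 libraries were fitted together, so the SE, interval and adjusted p of this comparison also draw on the NG and LG libraries. LGCAR against NG, which shares its NG libraries with the first comparison, gave 0.25 (SE 0.0469, edgeR adjusted p = 0.00731). The difference between the glucose effects with and without cariporide was -0.08, with a 95% interval of -0.22 to 0.06. The call in LG against NG held with each of the 12 libraries left out (edgeR adjusted p = 0.00114 to 0.0333). The call in LGCAR against NG was lost without LGCAR 1 (edgeR adjusted p = 0.0531), and that in LGCAR against CAR when any 1 of NG 2, CAR 1, CAR 2, CAR 3, LG 2, LGCAR 1, LGCAR 2 and LGCAR 3 was left out (edgeR adjusted p = 0.0527 to 0.168). It was also lost when scaling by library totals only (edgeR adjusted p = 0.0853), with no filter on low counts (0.0642) and when only the compared groups were fitted (0.0763).

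GRAMD1B encodes an endoplasmic reticulum protein of the Aster family, which draws accessible cholesterol from the plasma membrane. It had 62 to 134 counts a library and the lowest level per length of the 32 genes, 0.200 CPM per kilobase of exon in NG. Its level was 2.94, 3.24 and 2.72 CPM in NG, 3.65, 4.73 and 3.19 CPM in CAR, 5.61, 4.96 and 4.94 CPM in LG, and 3.54, 4.38 and 5.00 CPM in LGCAR. The NG and LG libraries did not overlap, whereas CAR and LGCAR did. The log2 fold change in LG against NG was 0.80 (SE 0.162, 95% interval 0.46 to 1.15, edgeR adjusted p = 0.0174). Removing any of NG 1, NG 3, LG 1 and LG 2 ended that call, with edgeR adjusted p = 0.0542 to 0.106. In LGCAR against NG the value was 0.54 (edgeR adjusted p = 0.0562), and in LGCAR against CAR 0.16 (95% interval -0.18 to 0.50). The test of the difference between the glucose effects gave -0.65 (unadjusted p = 0.0120 and adjusted p = 0.9999 in edgeR), so a smaller rise under cariporide was not established.

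The other transport genes showed smaller values. GRAMD1A and GRAMD1C, of the same family as GRAMD1B, had log2 fold changes of 0.11 and 0.12 in LG against NG and of 0.17 and 0.26 in LGCAR against CAR, none of them called. NPC2, the soluble lysosomal protein that hands cholesterol to NPC1, was at 0.07 and -0.02 in the same comparisons. NPC2 was among the highest members per length, at 58.4 CPM per kilobase in NG. STARD4, a cytosolic sterol carrier, was at -0.02 and 0.01, with 95.4 to 106 CPM over all libraries. Of the 6 transport genes, 2 rose with lower glucose alone (LG against NG), 1 rose from NG to LGCAR and 1 rose from CAR to LGCAR, where 1.73%, 8.75% and 1.65% of all tested genes were called.

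**Figure D2:**
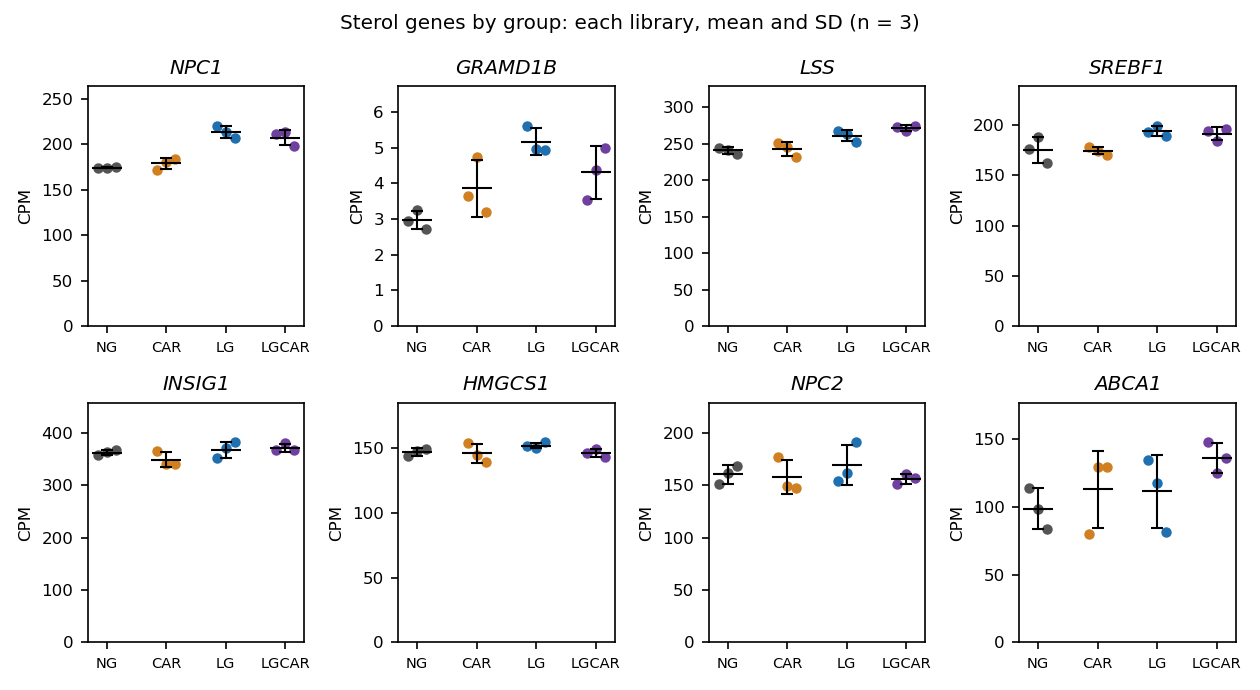
CPM of 8 sterol genes in each library, by group; points are libraries and bars are mean ± SD of 3 libraries, with a linear axis per gene. NPC1 shows 6 libraries in 5 mM glucose above all 6 in 10 mM glucose, LSS and SREBF1 move by less, and ABCA1 is scattered within NG, CAR and LG.

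LSS, lanosterol synthase, closes squalene epoxide into the first sterol of the pathway. It was at 244, 242 and 236 CPM in NG, 251, 246 and 232 CPM in CAR, 267, 263 and 253 CPM in LG, and 273, 267 and 275 CPM in LGCAR. Every library in 5 mM glucose was above every library in 10 mM glucose. The log2 fold change was 0.17 in LGCAR against NG (SE 0.0454, 95% interval 0.08 to 0.27, edgeR adjusted p = 0.0315). It was 0.12 in LG against NG (edgeR adjusted p = 0.231) and 0.16 in LGCAR against CAR (edgeR adjusted p = 0.0853, DESeq2 adjusted p = 0.0326). With cariporide at 5 mM glucose, LGCAR against LG, it was 0.06 (edgeR adjusted p = 0.589). The difference between the glucose effects with and without cariporide was 0.04, with a 95% interval of -0.09 to 0.18. The call in LGCAR against NG was lost when any 1 of 7 libraries was left out, NG 1, NG 2, NG 3, LG 2, LGCAR 1, LGCAR 2 and LGCAR 3 (edgeR adjusted p = 0.0512 to 0.140), and with no filter on low counts (0.0680).

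LSS was the only one of the 18 synthesis enzymes to be called in any of the 6 comparisons. That was 5.56% of the enzymes in LGCAR against NG, beside 8.75% of all tested genes. In LG against NG 9 enzymes had positive and 9 had negative log2 fold changes, from -0.13 for SQLE, the epoxidase before LSS, to 0.12 for LSS. The 95% intervals of all 18 lay between -0.27 and 0.24, inside a change of 1.25-fold in either direction, while 54.4% of all tested genes had intervals that narrow and central. In CAR against NG all 18 intervals again lay inside 1.25-fold, beside 59.6% of all genes. The intervals are for each gene alone and are not adjusted for the number of genes. Their width depends on expression level, for which the enzymes and all tested genes were not matched. The shares therefore do not show that the enzymes were more stable than other genes. In LGCAR against NG 15 of 18 met this limit, beside 44.4% of all genes. The rate of synthesis was not measured, and mRNA levels do not give it.

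The mevalonate arm, from ACAT2 and HMGCS1 through MVK, PMVK, MVD and IDI1 to FDPS, builds the isoprenoid units. HMGCS1 makes the precursor that enters the pathway, and its 12 libraries lay between 139 and 155 CPM. Its log2 fold change was 0.05 in LG against NG and 0.00 in LGCAR against CAR. In CAR against NG all 7 genes of the arm were negative, from -0.08 to -0.01, and none was called. The shared sign is descriptive, because the enzymes varied together between libraries. Of the 18 synthesis enzymes, 17 lay above their group mean in CAR 1 and 1 in CAR 3. The later enzymes, from FDFT1 and SQLE to EBP, SC5D and DHCR7, convert farnesyl units to squalene and then to cholesterol. In NG the highest enzymes per length were CYP51A1 (60.1 CPM per kilobase), MSMO1 (55.3), FDPS (54.6) and DHCR7 (52.5), while TM7SF2, a sterol reductase, was at 2.65. In GENCODE 29 a second gene on the strand of CYP51A1 covers 79.4% of its exon bases, a gene on the opposite strand covers 52.3% of those of ACAT2, and HSD17B7 has a near-identical pseudogene, so the counts of these enzymes are uncertain. Genes on the opposite strand also cover 18.6% of the exon bases of FDPS, 15% of HMGCS1 and 14.8% of IDI1, whose counts carry the same doubt to a smaller extent.

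**Figure D3:**
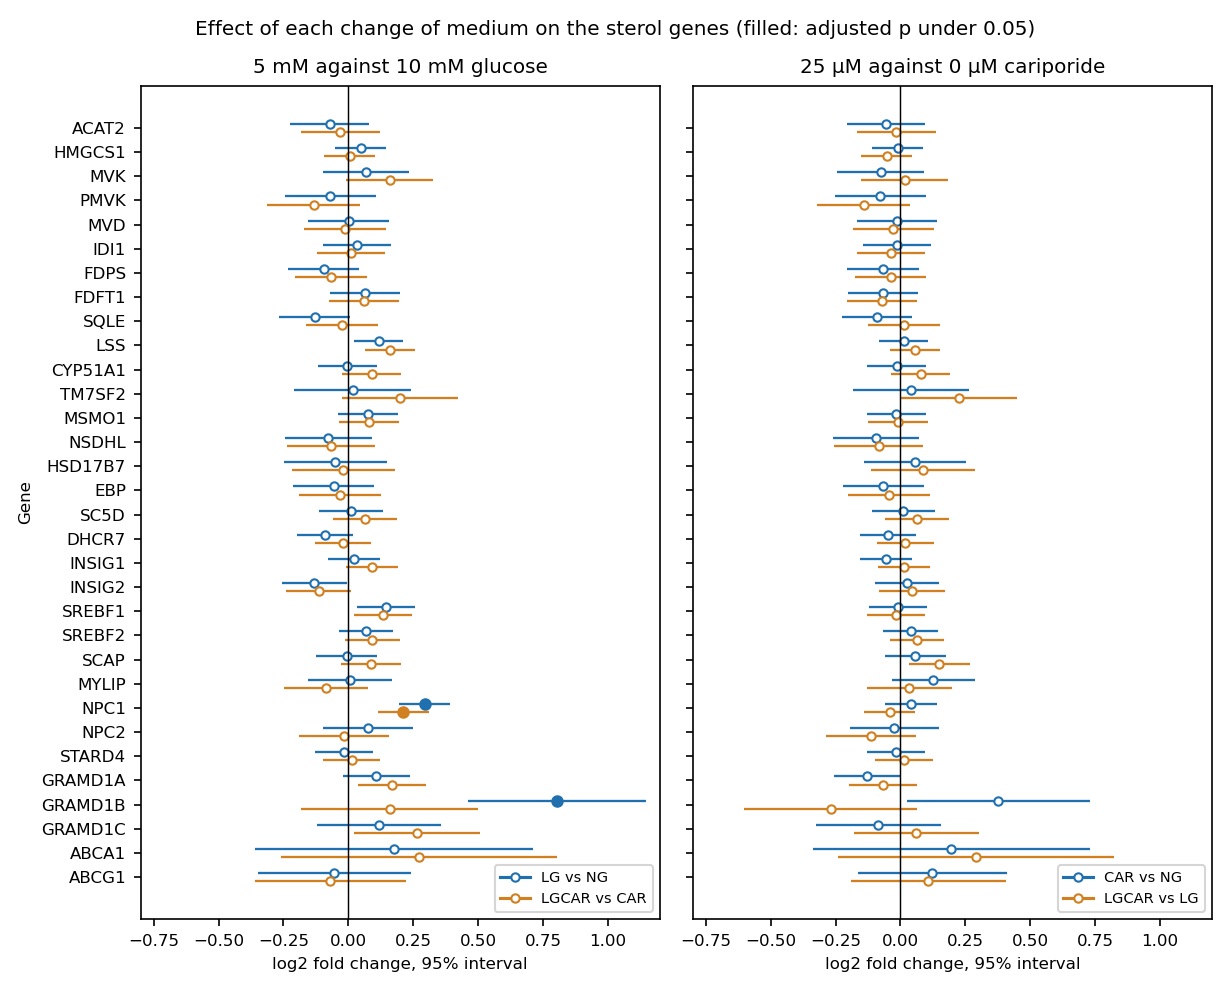
Log2 fold change with its 95% interval for each of the 32 genes, for lower glucose (LG against NG and LGCAR against CAR) and for cariporide (CAR against NG and LGCAR against LG); filled points have an adjusted p under 0.05. Filled points are NPC1 in both glucose comparisons and GRAMD1B in LG against NG; the enzymes cluster around 0, and intervals are widest for ABCA1 and GRAMD1B.

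None of the 5 SREBP control genes was called by edgeR in the 6 comparisons, although 2 in LG against NG, 3 from NG to LGCAR, 1 in LGCAR against LG and 1 in LGCAR against CAR had an unadjusted p under 0.05. The shares of all tested genes under that p were 15.2%, 28.9%, 11.9% and 17.6%. Each of the 95% intervals of these 5 genes lay inside 1.25-fold, beside 43.3% to 59.6% of all genes over the 6 comparisons, again not matched for expression level. INSIG1, itself a classical SREBP target, was the highest member per length at 99.4 CPM per kilobase in NG. It had log2 fold changes of 0.02 in LG against NG and 0.09 in LGCAR against CAR. SREBF1, which encodes the SREBP more tied to fatty acid synthesis, was at 176, 188 and 162 CPM in NG and 193, 199 and 189 CPM in LG. It was at 178, 175 and 171 CPM in CAR and 194, 184 and 196 CPM in LGCAR. Neither pair overlapped. The log2 fold changes were 0.14 (edgeR adjusted p = 0.195) and 0.13 (edgeR adjusted p = 0.196). The first was 0.09 without NG 3. SREBF2, which encodes the SREBP more tied to cholesterol synthesis, was at 0.07 and 0.09. INSIG2, the other INSIG anchor, was at -0.13 and -0.11. SCAP was at -0.01 and 0.09.

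Averaging both glucose comparisons, a contrast added after the values were seen, called 4 of 32 genes, all higher in 5 mM glucose, or 12.5% beside 9.73% of all genes and 5.3% called higher. They were NPC1 (log2 0.25, edgeR adjusted p = 2.57e-04), GRAMD1B (0.48, adjusted p = 0.0153), LSS (0.14, adjusted p = 0.0136) and SREBF1 (0.14, adjusted p = 0.0280). NPC1 and GRAMD1B passed with any single library left out. LSS did not pass without LG 2 or LGCAR 1 (edgeR adjusted p = 0.0533 to 0.0545), and SREBF1 did not pass when any 1 of 7 libraries was left out (0.050002 to 0.0959). GRAMD1A (0.14, edgeR adjusted p = 0.0559) and INSIG2 (-0.12, adjusted p = 0.0739) did not pass. With NG 1 and LGCAR 3, the libraries with the highest ribosomal shares, both left out, NPC1 was the only member to pass.

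ABCA1, the pump that loads cholesterol onto lipid-poor apolipoprotein, differed most between libraries of the same group. It was at 114, 98.7 and 83.3 CPM in NG, 80.1, 129 and 129.6 CPM in CAR, 135, 117 and 81.8 CPM in LG, and 147, 125 and 136 CPM in LGCAR. Every LGCAR library was above every NG library, whereas the other groups overlapped with NG. Other uncalled members, such as TM7SF2 (higher) and PMVK (lower), were also without overlap in LGCAR against NG. The log2 fold change in LGCAR against NG was 0.47 with a 95% interval of -0.07 to 1.003 (SE 0.235, edgeR adjusted p = 0.226), so no change was shown by this test. The SD within groups was 0.30 on the log2 scale, the highest of the 32 members and at the 86.2 percentile of all tested genes. ABCG1, which exports cholesterol to high-density lipoprotein, had 55 to 84 counts a library and log2 fold changes of -0.07 to 0.12 over the 5 pairwise comparisons.

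Within each group, the library with the least ABCA1 had the highest median of the synthesis enzymes. This was seen after the values were inspected and was not tested. Those libraries were NG 3, CAR 1, LG 3 and LGCAR 2, with ABCA1 below its group mean by log2 values of -0.23, -0.46, -0.41 and -0.12. The median deviation of the 18 enzymes in them was 0.02, 0.13, 0.06 and 0.03, and 12, 17, 15 and 14 of 18 enzymes lay above their group means. ACAT2, HMGCS1, FDPS, FDFT1, SQLE and DHCR7 were highest in that library in all 4 groups, or 33.3% of the enzymes, beside 7.77% of all tested genes. NPC2 and INSIG1 were also highest there in all 4 groups, and NPC1 in 2 of 4. Other members did not follow: SREBF2 and SCAP were highest there in 0 of 4 groups, and LSS, CYP51A1 and MVD in 1. SREBF2 was the lowest of its group in each of these libraries, at 188, 191, 192 and 200 CPM. The pattern was not limited to sterol genes: the receptor kinase gene AXL was also lowest in these 4 libraries, by log2 values of -0.14, -0.27, -0.27 and -0.09 from its group means. The ribosomal share was 7.83%, 7.10% and 7.91% in NG 3, CAR 1 and LG 3, the lowest of their groups, and 9.84% in LGCAR 2, which was not the lowest. Its part in the pattern was not tested.

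**Figure D4:**
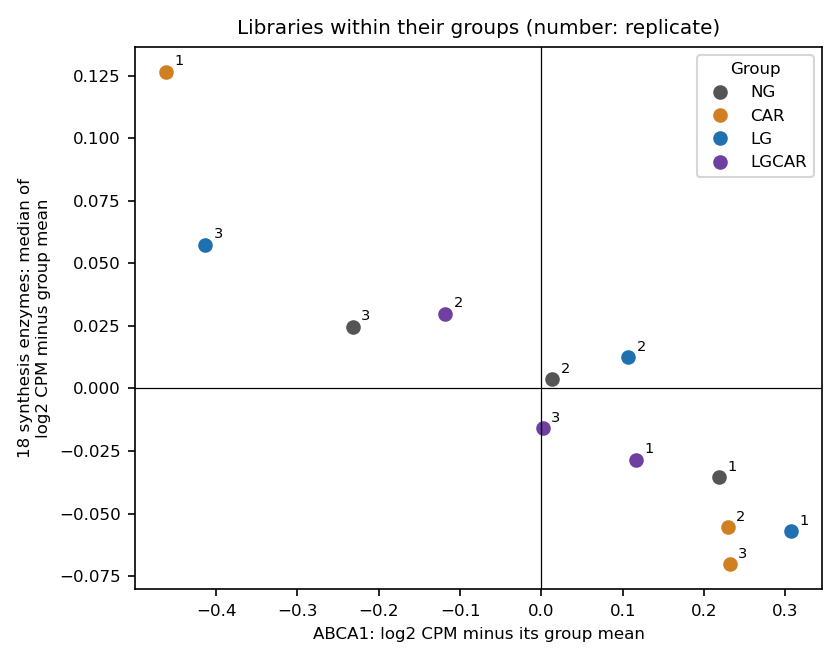
Each point is a library: ABCA1 (x axis) against the median of the 18 synthesis enzymes (y axis), both as log2 deviation from the group mean. The libraries lowest in ABCA1, such as CAR 1 at -0.46 and LG 3 at -0.41, have the highest enzyme medians of their groups, 0.13 and 0.06.

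Cariporide gave no called sterol gene. In CAR against NG edgeR called 0 of 32 members and 0% of all genes, with 1 member, GRAMD1B, at an unadjusted p under 0.05 (log2 0.38, unadjusted p = 0.0367, adjusted p = 0.894). In LGCAR against LG it called 0 of 32, beside 0.00662% of all genes, with SCAP alone at an unadjusted p under 0.05 (0.15, unadjusted p = 0.0154, adjusted p = 0.383 in edgeR). For the interaction, whether the cariporide effect depends on glucose, it called 0 of 32, beside 0.00662% of all genes, with GRAMD1B alone at an unadjusted p under 0.05. DESeq2 and limma-voom also called 0 members in these 3 comparisons. Averaged over both glucose levels, a contrast added after the values were seen, cariporide gave 0 called members by edgeR, DESeq2 and limma-voom, beside 0.00662% of all genes in edgeR, and 2 members, SCAP and GRAMD1A, at an unadjusted p under 0.05. Under that p lay 4.53% of all tested genes in CAR against NG and 11.9% in LGCAR against LG. For the interaction the share was 3.13%, and for averaged cariporide 15.3%. Without CAR 1 the averaged cariporide contrast called 2 members, GRAMD1A and NSDHL, both lower with cariporide, among 1300 genes in all. MYLIP, whose product IDOL marks lipoprotein receptors for degradation, was the only member for uptake, and its log2 fold change was 0.13 in CAR against NG (95% interval -0.03 to 0.29) and 0.01 in LG against NG.

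A further 50 genes of sterol and isoprenoid metabolism were also listed with earlier results of these data known. Of these, 48 were tested, and their median log2 fold change in LG against NG was 0.03 beside 0.01 for all genes. In LG against NG ERLIN2, which takes part in degradation of sterol-regulated proteins, rose by a log2 value of 0.22 (edgeR adjusted p = 0.0297), and VLDLR, a lipoprotein receptor, fell by 0.30 (edgeR adjusted p = 0.0206), so that 4.17% of the 48 were called beside 1.73% of all genes. In LGCAR against NG 3 rose: ERLIN2 by 0.23 (edgeR adjusted p = 0.0126), ABCA7, a lipid transporter, by 0.28 (0.0317), and SCARB2, a lysosomal membrane protein, by 0.15 (0.0464). These were 6.25% of the 48, beside 8.75% of all genes. None of the 48 was called by edgeR in CAR against NG, LGCAR against LG, LGCAR against CAR or the interaction, where 3, 3, 6 and 1 had an unadjusted p under 0.05. The shares of all tested genes under that p were 4.53%, 11.9%, 17.6% and 3.13%. Called in the same comparisons were 0%, 0.00662%, 1.65% and 0.00662% of all genes. Leaving out single libraries ended the LG against NG call of ERLIN2 in 7 of 12 cases and of VLDLR in 3. It ended the LGCAR against NG call of ERLIN2 in 4, of ABCA7 in 4 and of SCARB2 in 10.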

How the data were processed

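RNA was extracted with Trizol, and a directional NEBNext Ultra II kit was used for libraries, per the labels' protocols. The authors deposited raw read counts per gene for each library. fastp, STAR, Salmon and GATK and the build GRCh38 are listed in the submitters' processing notes, without their roles; which counted reads, and any strand setting, are not stated there. Counts were scaled by TMM, filtered with filterByExpr over 4 groups and fitted in edgeR 4.0.16 (R 4.3.3) by robust quasi-likelihood on all 12 libraries with 1 mean per group, with the Benjamini-Hochberg method over 15104 genes. CPM values use the TMM-adjusted totals. Exon lengths come from GENCODE 29. DESeq2 1.42.0 and limma 3.58.1 (voom) served as alternatives. The main test was also run on counts simulated from means and dispersions estimated from these data. Such a run cannot check how well the model describes these libraries. The members and lists were chosen with earlier results of these data known. Values per library are given for members called in any of 6 planned comparisons; SREBF1 and ABCA1 were added after their values were seen. Other sterol genes are named where called.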

Additional observations from a re-analysis of the deposited data

How the results depend on the processing

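Counts of called sterol genes (2 for LG and 2 for LGCAR, each against NG, 1 for LGCAR against CAR, 4 for the averaged glucose contrast) moved as follows. For LGCAR against CAR the count was 0 with library totals only, 0 with no filter on low counts, 0 with only the groups compared, 2 with DESeq2, and 0 with NG 1 and LGCAR 3 left out together. For LG against NG it was 1 with a minimum mean of 5 CPM, which removes GRAMD1B, and 1 with NG 1 and LGCAR 3 left out. For LGCAR against NG it was 7 with only the groups compared (3542 genes in all) and 1 with NG 1 and LGCAR 3 left out, where the averaged glucose contrast also gave 1. Leaving out single libraries gave 1 to 2, 0 to 3, 0 to 1 and 2 to 7 in these comparisons, 0 to 2 for averaged cariporide, and 0 to 0 for CAR against NG, LGCAR against LG and the interaction. Over all genes and alternatives the counts ran from 83 to 471 (main 261) in LG against NG, 136 to 3542 (1322) in LGCAR against NG, 51 to 448 as against 249 in LGCAR against CAR, 742 to 2435 (1469) for averaged glucose, 0 to 2 (0) in CAR against NG, 1 to 20 (1) in LGCAR against LG, 1 to 5 (1) for the interaction and 1 to 1300 (1) for averaged cariporide. The 25 gene values recomputed, those of NPC1, GRAMD1B, LSS, SREBF1, ABCA1, GRAMD1A, INSIG2, ERLIN2, VLDLR, SCARB2 and ABCA7, kept their sign; fold changes of the other named genes were not recomputed. Medians over the sterol genes lay near 0 and their sign is not stable: that of the interaction was -0.03 with library totals only and 0.03 in the main analysis, and with single libraries left out medians ran from -0.06 to 0.02 in CAR against NG, -0.01 to 0.04 in LG against NG, -0.02 to 0.02 in LGCAR against LG, -0.01 to 0.06 for the interaction and -0.03 to 0.001 for averaged cariporide. The causes of these moves were not tested, other than the filter that removes GRAMD1B.

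With the replicate number as a block, LGCAR against NG gave 1 (LSS was lost, edgeR adjusted p = 0.0511) and LGCAR against CAR 0 called sterol genes (NPC1 was lost, edgeR adjusted p = 0.0723), with 682 and 135 over all genes. Deviations of same-numbered libraries correlated at -0.11 to 0.14 (median 0.04 over 18 pairs, 2 pairs over 0.1), so the numbers are not treated as pairing the samples.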
